A study of Mus musculus with 5 samples.

Results

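Von Willebrand factor (Vwf) is a large adhesive glycoprotein that megakaryocytes and endothelial cells make, store in granules and release, and that binds platelets to damaged vessel walls. A fraction of hematopoietic stem cells (HSCs) also transcribes Vwf, and such cells are known from other work as platelet-primed stem cells. Fgd5 is a gene that marks HSCs in mouse bone marrow, and a fluorescent reporter in its locus allows these cells to be sorted. The cells described here are the Fgd5 reporter-positive cells in which at least 1 Vwf transcript was counted. They numbered 241 of 1198 reporter-positive cells and of 12893 cells in all, and were chosen by their own Vwf count. The Vwf values are therefore given as a description, without a test.

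All cells came from the bone marrow of mice labelled Fgd5CreERT2/+Rosa26Tomato/+ at 20 weeks of age. They were profiled with the Chromium system, in which unique molecular identifiers (UMIs) make each count a captured molecule. Of the 5 libraries, 3 were sorted as lineage-negative, c-kit+ cells (Lin-kit+). The other two were sorted as Lin-kit+ cells positive for the ZsGreen reporter (Fgd5+), 1 of them with the added gate Sca1+CD150+CD48- (HSC-Fgd5+). For this pair, titles and source names disagree on which sample had the added gate, and both are called reporter-positive here. The barcode suffixes name no population, so the pair of suffixes with the fewest cells, 793 and 519, was taken as the reporter-positive libraries. This assignment rests on the cell numbers that the study prints. They are called the larger and the smaller library, and n counts libraries because the number of mice is not given in the sources used here. The strain label names a Cre and a Tomato allele but no ZsGreen, and 1 reporter defines both libraries, so HSCs that did not express it are not among these cells.

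Cells with 10% or more of their UMIs on mitochondrial genes were left out, which removed 3 cells of the larger and 111 cells of the smaller library. The smaller library stood apart in this respect, and 15 of its remaining cells were called doublets against 4 in the larger library. No barcode was shared between both reporter-positive libraries, and 2 of the 241 Vwf+ cells had a barcode that also occurred in a Lin-kit+ library. A single cell held 97.6% of the S100a8 UMIs, a neutrophil granule gene, and it lay among the Vwf- cells of the larger library. The cells without a Vwf UMI are called Vwf- below, which at this depth does not mean that they lacked the transcript.

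Vwf was counted in 157 of 790 cells of the larger library, 19.9% (95% Wilson interval 17.2 to 22.8). In the smaller library it was counted in 84 of 408 cells, 20.6% (16.9 to 24.8), and the intervals of both libraries overlapped. Levels are given as UMIs of a gene per 1000000 UMIs of all genes in the cells summed (CPM), and the Vwf level over all cells was 57.4 CPM in the larger and 55.5 CPM in the smaller library. Most Vwf+ cells sat at the edge of the rule: 173 of the 241 held 1 Vwf UMI, 41 held 2 and 27 held 3 or more, with a highest count of 7. In the Lin-kit+ libraries 1.50%, 0.689% and 0.965% of cells had a Vwf UMI. Lin-kit+ cells with at least 5% of their UMIs on neutrophil granule genes, which should lack Vwf, had it in 4 of 2535 cells, 0.158%, at a median of 5139 UMIs per cell against 4348 and 4370 in the reporter-positive libraries. Lin-kit+ cells with at least 4 Pf4 UMIs after thinning had a Vwf UMI in 52 of 139 cells, 37.4% (29.8 to 45.7). Intervals here cover counting error only.

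A rule of at least 1 Vwf UMI favours cells with many UMIs, and the Vwf+ cells held more UMIs per cell. Their median was 6641 UMIs in the larger library against 4083 in its Vwf- cells, and 5447 against 4244 in the smaller library. Every cell of at least 2000 UMIs was therefore thinned at random to 2000 UMIs, which kept 235 Vwf+ and 898 Vwf- cells. After thinning, a Vwf UMI was left in 9.01% (7.18 to 11.2) of the cells of the larger and 11.2% (8.34 to 14.8) of those of the smaller library. Of the 235 Vwf+ cells, 110 kept a Vwf UMI and 125 lost it. The variance of the thinned Vwf count was 1.06 times its mean in each library, against 1 for purely random capture from like cells.

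**Figure D1:**
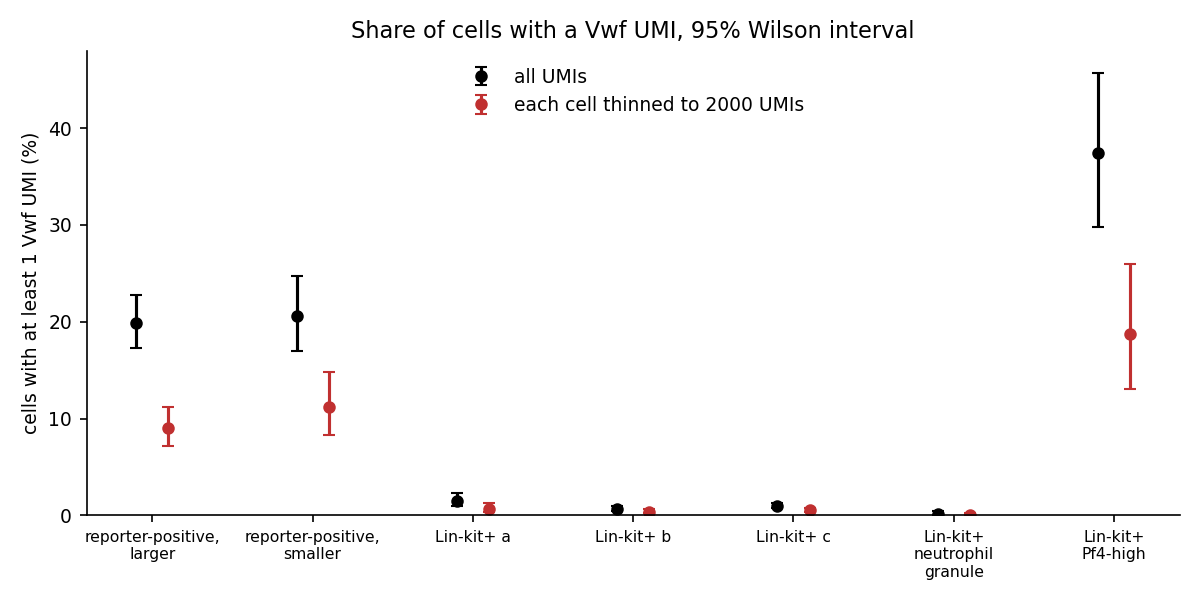
Share of cells with at least 1 Vwf UMI (vertical axis, percent) in each library and in the Lin-kit+ cells rich in neutrophil granule or Pf4 UMIs, with all UMIs (black) and after thinning to 2000 UMIs per cell (red). Points are shares and bars 95% Wilson intervals; both reporter-positive libraries lie near 20% with all UMIs, and the 3 Lin-kit+ libraries at or below 1.50%.

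The rule's markers did not all go with Vwf. Itga2b, the integrin chain CD41 of the platelet fibrinogen receptor, stood at 67.7 and 37.5 CPM in the Vwf+ cells of the larger and the smaller library and at 20.5 and 26.1 in the Vwf- cells. Slamf1, which encodes CD150, stood at 38.7 and 56.2 in Vwf+ and at 33.6 and 45.3 in Vwf- cells, and its difference of 0.25 ± 0.37 (log2, SE) did not pass the test (adjusted p = 0.925, edgeR). CD150 was also part of the added sort gate. Procr, the stem cell marker EPCR, was detected at 89.7 and 100.1 CPM in the unthinned Vwf+ cells. The 20, 28 and 59 Vwf+ cells of the Lin-kit+ libraries were of another kind. They held 0, 0 and 9.43 Procr CPM and 4553, 4142 and 6126 CPM of Pf4, the platelet chemokine CXCL4, against 443.6 and 117.1 Pf4 CPM in the reporter-positive Vwf+ cells. Endothelial cells also make Vwf, but Cdh5, which defines them, had no UMI in any of the thinned cells of either class.

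Counts were then summed per library and class, which gave 4 sums, and tested with edgeR's quasi-likelihood test with the library as a block and Vwf left out. Of 5290 genes tested, 49 were higher in Vwf+ cells (0.926%) and 33 lower (0.624%) at an adjusted p below 0.05. All 82 had the same sign in both libraries, which is largely built into calls from these same libraries. The number of calls was not stable. Over 20 random thinnings it ran from 1 to 96 with a median of 62. Of the 82 genes, 25 were called in at least 15 of them and 28 in under 5. The thinning that gave the 82 calls is itself 1 of the 20, so a gene called in 1 of them was called in no other. DESeq2 on the same sums called 1 gene, Cd74 (0.0189%), with 43 genes at an unadjusted p below 0.05. With the sums taken over all UMIs of all cells, edgeR called 230 genes higher (2.66%) and 188 lower (2.17%) of 8657.

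A further fit paired each Vwf+ cell with the Vwf- cell nearest to it in total UMIs, with median depths of 6655 and 6620 in the larger and 5576 and 5570 in the smaller library. It tested 3313 genes and called 0 (0%), with 247 at an unadjusted p below 0.05. Of the 82 called genes, 70 were tested there and 62 kept their sign. Its values stand below beside some of the genes, and a gene printed without one may still have been tested there.

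The genes called in at least 15 of the 20 thinnings were 14 higher and 11 lower in Vwf+ cells. The higher genes included Pf4, Gkn3, Clu, Mt1, Sdpr, Pdcd4, Mef2c, Apoe, Cks2, Hmgn2, H2afz, Hmgb2 and Tuba1b. The lower genes were Cd74, H2-Aa, H2-Ab1, H2-D1, Rgs1, Ltb, Ly6a, Myl10, Shisa5, Ifitm1 and Malat1.

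**Figure D2:**
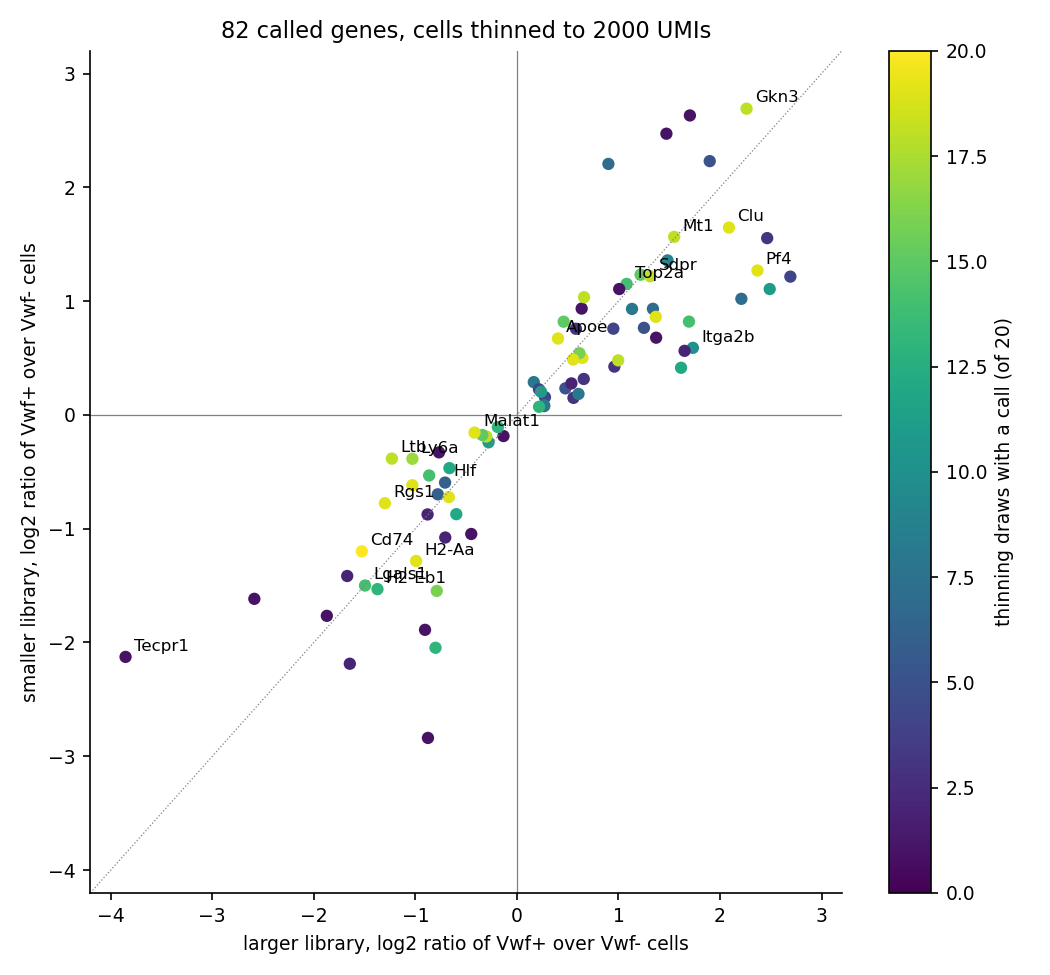
Log2 ratio of the Vwf+ over the Vwf- level in the larger (horizontal) and the smaller library (vertical) for the 82 called genes, cells thinned to 2000 UMIs, 0.5 UMIs added to each sum. The colour gives the number of 20 thinnings in which the gene was called; all points lie in the 2 quadrants of equal sign, and Tecpr1, the largest fall, was called in 1 thinning.

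Megakaryocyte and platelet genes were measured with a list of 40 genes, of which 25 were tested. In all, 6 were called higher, among them Pf4, Itga2b, Clu, Sdpr and Rap1b, none lower, and the median log2 fold change of the list was 0.52 against 0.0033 over all genes tested. Pf4 stood at 271 and 138 CPM in the Vwf+ cells of the larger and the smaller library and at 52.4 and 57.5 in the Vwf- cells. Both Vwf+ values lay above both Vwf- values, and the fold change was 2.06 ± 0.21 (log2, SE, adjusted p = 5.3e-18, edgeR). With matched depth it was 2.34 ± 0.31 (unadjusted p = 7.2e-05, adjusted p = 0.119).

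Clu, the secreted chaperone clusterin, stood at 87.1 and 125 CPM in Vwf+ and at 20.5 and 40.1 in Vwf- cells. Its fold change was 1.88 ± 0.31 (adjusted p = 1.1e-06, edgeR) and 1.86 ± 0.34 with matched depth. Sdpr, a caveolar coat protein, stood at 119 and 181 against 48.3 and 78.4, a fold change of 1.26 ± 0.25 (1.31 with matched depth). In both genes, as for Pf4, the 2 values of one class did not overlap with those of the other. These genes were called from the same sums, so this is a description and adds no support. Itga2b was near the threshold (1.34 ± 0.40, adjusted p = 0.048, called in 10 of 20 thinnings). Its activator Rap1b was called at 1.35 ± 0.30 (adjusted p = 0.0015, edgeR) and in 12 of 20 thinnings. Its values in the smaller library were 37.5 and 29.6.

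With all UMIs, 13 of 27 tested genes of the list were called higher and none lower. Besides those 6, these included Gp9, a subunit of the platelet receptor for Vwf itself, with a fold change of 0.91 ± 0.18, Selp, the adhesion receptor P-selectin (0.96 ± 0.21), and Gfi1b, a transcription factor of megakaryocytes and red cells (0.99 ± 0.19). In the thinned cells the transcription factors Gata2 differed by -0.01 ± 0.20 and Fli1 by 0.52 ± 0.21, and Cd9 by 0.06 ± 0.18. None of these 3 passed the test there, although Fli1 was 1 of the 13 called with all UMIs. Of 20 genes for the storage of Vwf or its binding partners, 11 were tested in the thinned cells. Itga2b was the 1 called, and the median was 0.23. With all UMIs, 4 of 15 were called higher, Gp9, Itga2b, Selp and Rab27b, and none lower, with a median of 0.16.

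The rise of Pf4 rested on few cells. In all, 10 cells held 4 to 16 Pf4 UMIs after thinning, while the highest count was 2 in the other 225 Vwf+ cells and 3 in the 898 Vwf- cells. All 10 were Vwf+, 8 in the larger and 2 in the smaller library, none was called a doublet, and they made up 4.26% of the Vwf+ cells but held 81.1% of their Pf4 UMIs. They were deep, with 6708 to 17693 UMIs before thinning (median 11084). The cut at 4 UMIs was chosen after the counts were seen.

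Before thinning, the 10 Pf4-high cells held 27 Itga2b UMIs in 9 cells, 19 Gp9 UMIs in 9 cells, 47 Rap1b UMIs in all 10 cells, and 8 UMIs in 6 cells of Gata1, the transcription factor of megakaryocytes and red cells. They held 2 Procr UMIs and 2 Ly6a UMIs, each in 1 cell, 5 Hlf UMIs in 2 cells, 10 Cd74 UMIs in 2 cells and no Cd48 UMI. Procr was found in 408 and Ly6a in 580 of the 898 Vwf- cells. As CPM before thinning, the 10 cells stood at 4333 for Pf4 and 17.4 for Procr. The other 225 Vwf+ cells stood at 52.1 and 95.9, and the Vwf- cells at 46.9 and 142. The Vwf+ cells of the Lin-kit+ libraries stood at 4142 to 6126 for Pf4 and 0 to 9.43 for Procr. The megakaryocyte genes were thus present and the stem cell markers mostly absent in these 10 cells, which is against the label of a stem cell for this small group. Without them, Pf4 was no longer higher in Vwf+ cells, with a fold change of -0.29 ± 0.35 (adjusted p = 0.901, edgeR), and Itga2b changed by 1.11 ± 0.42 (adjusted p = 0.235). Since the 10 cells were taken by their Pf4 level, this value for Pf4 is biased downward. Clu (1.77 ± 0.32) and Sdpr (1.27 ± 0.25) remained called without them. In that fit 37 genes were higher (0.71%) and 30 lower (0.576%) of 5208.

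**Figure D3:**
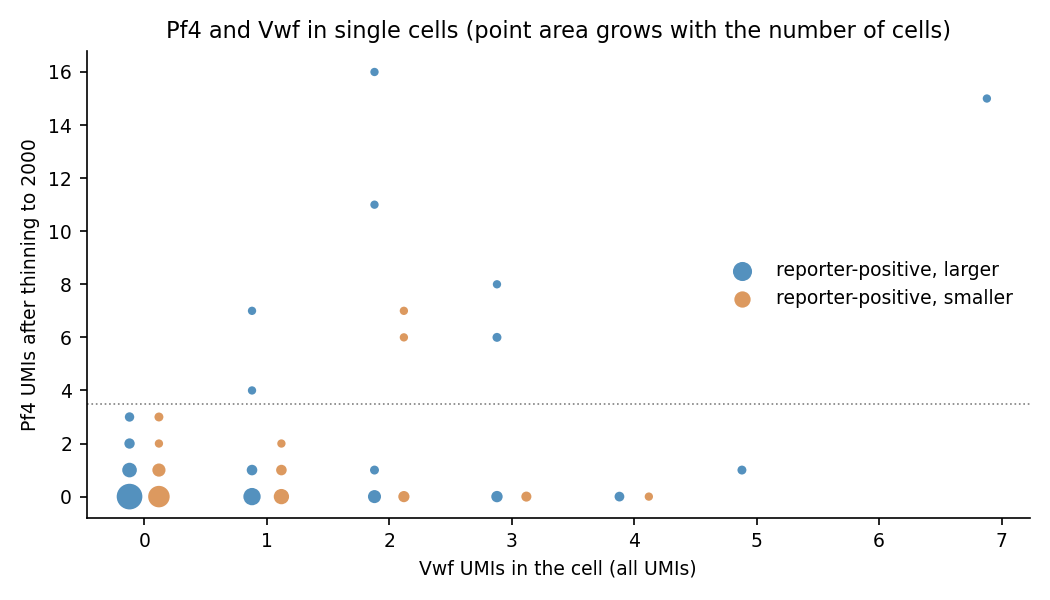
Pf4 UMIs after thinning to 2000 UMIs (vertical) against the number of Vwf UMIs (horizontal) in the 1133 single cells of both reporter-positive libraries; the area of a point grows with the number of cells, and the dotted line separates the 10 cells with at least 4 Pf4 UMIs. All 10 lie at 1 or more Vwf UMIs, and most Vwf+ cells lie at 0 Pf4 UMIs.

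The genes that present antigen on MHC class II were lower in Vwf+ cells. Cd74, the invariant chain of class II molecules, stood at 168 and 250 CPM in Vwf+ and at 488 and 580 in Vwf- cells, a fold change of -1.40 ± 0.15 (adjusted p = 2.7e-16, edgeR). It was called in 20 of 20 thinnings and by DESeq2 (adjusted p = 0.0103), and stood at -0.82 ± 0.17 with matched depth (unadjusted p = 0.0013). A Cd74 UMI was found in 19.4% (13.9 to 26.3) and 22.5% (14.7 to 32.8) of the thinned Vwf+ cells. In the Vwf- cells, not matched on depth, it was found in 39.8% (36.0 to 43.7) and 42.9% (37.3 to 48.6). These intervals did not overlap within either library, but they count cells, which are not replicates. Cd74 was called from the same cells, so this is a description and adds no support. H2-Aa, the class II alpha chain, stood at 155 and 138 against 311 and 341 CPM (-1.11 ± 0.18). The beta chains H2-Ab1 (-1.06 ± 0.21) and H2-Eb1 (-1.48 ± 0.27) were lower too. With matched depth these 3 genes stood at -0.73, -0.78 and -1.08, with adjusted p from 0.635 to 0.704 (edgeR). Of the class I genes, H2-D1 was called at a smaller change of -0.26 ± 0.06 (-0.11 with matched depth), and H2-K1 (-0.22) and B2m (-0.15) did not pass the test. In all, 5 of 15 tested genes of the MHC list were lower and none higher, with a median of -0.33. With all UMIs, 8 of 15 were called lower and none higher, the same 5 with H2-K1, B2m and Psmb9, and the median was -0.28.

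The stretches 250 bases upstream of 3 of these starts are shown because the class II genes fell together while Pf4 rose, and the window reads along the gene (RefSeq, build GRCm38.p6). Pf4 lies on chr5:90772435-90773383 on the plus strand with 3 exons, and its window is chr5:90772185-90772434. H2-Aa lies on chr17:34282744-34287823 on the minus strand (window chr17:34287824-34288073), and H2-Eb1 on chr17:34305867-34316674 on the plus strand (window chr17:34305617-34305866). Capitals mark GGAAG, the core bound by ETS factors, or its reverse complement in Pf4, and CTGATTGG, the Y box of class II promoters, in H2-Aa and H2-Eb1. GGAAG or its reverse complement also occurs, unmarked, 2 times in the window of H2-Aa and 0 times in that of H2-Eb1.
Pf4: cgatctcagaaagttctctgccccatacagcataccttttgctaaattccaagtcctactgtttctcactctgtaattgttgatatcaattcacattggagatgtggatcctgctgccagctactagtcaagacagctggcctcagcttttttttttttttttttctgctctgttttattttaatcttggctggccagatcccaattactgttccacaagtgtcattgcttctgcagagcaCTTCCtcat
H2-Aa: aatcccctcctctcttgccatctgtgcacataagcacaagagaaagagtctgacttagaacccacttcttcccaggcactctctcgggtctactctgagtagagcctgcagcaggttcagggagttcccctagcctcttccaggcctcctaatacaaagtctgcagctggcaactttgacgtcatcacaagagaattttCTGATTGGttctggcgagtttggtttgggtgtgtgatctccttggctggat
H2-Eb1: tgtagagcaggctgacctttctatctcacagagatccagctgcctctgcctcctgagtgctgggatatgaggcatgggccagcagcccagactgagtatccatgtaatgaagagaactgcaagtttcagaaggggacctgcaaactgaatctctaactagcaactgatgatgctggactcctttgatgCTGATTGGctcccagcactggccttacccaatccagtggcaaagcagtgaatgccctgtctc
On either strand, 3.83% of the 32851 windows of this length hold CTGATTGG, 64.1% hold GGAAG and 9.99% hold the motif of GATA factors searched for (AGATAA), which has no match in the 3 windows. A match is a description of the letters and not of binding. Vwf itself lies on chr6:125546774-125686679 on the plus strand with 52 exons.

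Genes of lymphoid priming were mostly too sparse to test. Of 30 listed genes 9 were tested, with a median of -0.06. Ltb, the cytokine lymphotoxin beta, was lower, at 200 and 331 CPM in Vwf+ against 473 and 436 in Vwf- cells (-0.90 ± 0.15, adjusted p = 1.1e-06, edgeR), with a larger difference in the larger library, and at -0.55 with matched depth. Mef2c, a transcription factor that also acts in megakaryocytes, was higher (0.59 ± 0.15). With all UMIs, 6 of 16 were called lower, among them Flt3, the receptor of lymphoid-primed progenitors, with 4 and 1 UMIs in the Vwf+ cells of the larger and the smaller library against 56 and 12 in the Vwf- cells (-2.36 ± 0.57). Ltb, Ikzf2, Cd52, Cd27 and Il2rg were the others, and Mef2c was the 1 called higher. Il7r had 2 and Dntt 3 UMIs in all cells, all in Vwf- cells, so that these defining lymphoid genes could not be compared. In the thinned cells Ikzf2 stood at -1.23 and missed the threshold.

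Of 19 listed genes of multipotent progenitors 12 were tested, 1 was lower and none higher, with a median of -0.51. The lower gene was Lgals1, the lectin galectin-1, at 25.8 and 18.8 against 76.9 and 61.0 CPM (-1.60 ± 0.40), of which 1 cell held 14.3% of the UMIs, and at -1.54 with matched depth. Cd34, a surface marker of progenitors, stood at 58.1 and 25.0 against 99.0 and 80.1 and missed the threshold (-0.98 ± 0.31, adjusted p = 0.070, edgeR). With all UMIs, 11 of 15 genes of the list were called lower and none higher.

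Genes of stem cell identity were split. Of 32 listed genes 26 were tested, with a median of 0.013, and 1 was called higher and 2 lower. Hlf, a transcription factor of HSCs, was lower (-0.68 ± 0.16, adjusted p = 0.0045, edgeR), and so was Ly6a, which encodes the gated marker Sca1 (-0.79 ± 0.17, and -0.46 with matched depth). Hlf stood at 216 and 206 CPM in Vwf+ and at 355 and 315 in Vwf- cells. Procr differed by -0.63 ± 0.22 and missed the threshold (adjusted p = 0.138, edgeR). With all UMIs, 2 of 30 tested genes of the list were called higher and 3 lower, Procr, Hlf and Ly6a. Hlf was not called without the mitosis gene cells described below. With members of at least 2 Vwf UMIs, Procr and Ly6a were called lower and Hlf was not called. Mecom (-0.05 ± 0.19), Mllt3 (0.04 ± 0.15) and Kit (0.01 ± 0.22) did not pass the test. Fgd5 itself had 1 and 3 UMIs in the thinned Vwf+ cells of the larger and the smaller library and 10 and 7 in the Vwf- cells, too few to test.

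No gene linked to quiescence and growth arrest passed the test among 17 of 27 tested, and the list's median was -0.11. In edgeR 3 of the 17 had an unadjusted p below 0.05, against 566 of all 5290 genes tested. In DESeq2 none of the 17 had, against 43 of the 5290. The kinase inhibitors Cdkn1b and Cdkn1c differed by -0.36 ± 0.49 and 0.29 ± 0.44, errors that leave room for a change in either direction, and Cdkn1a was not tested. None of 9 tested immediate early genes, which respond to stress during cell isolation, was called, with a median of -0.30 and 1 unadjusted p below 0.05 (edgeR). With all UMIs, Txnip and Zfp36l2 were called lower.

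Cell division genes were higher in the thinned Vwf+ cells and this went with depth. Of 34 listed genes 26 were tested, and 7 were higher, Mki67, Top2a, Ccna2, Birc5, Tk1, Hmgb2 and Tuba1b, with a median of 0.67. Top2a, the topoisomerase of dividing cells, stood at 129 and 200 against 61.4 and 90.6 CPM (1.10 ± 0.23). With matched depth the list's median was -0.33, 2 of 24 genes had a positive value, and Top2a stood at -0.33. Cells with at least 3 UMIs over 18 mitosis genes after thinning made up 16.1% (11.2 to 22.7) and 13.8% (7.85 to 22.97) of Vwf+ cells, 5.40% (3.87 to 7.49) and 6.97% (4.56 to 10.5) of all Vwf- cells, and 17.4% (12.3 to 24.2) and 20.0% (12.7 to 30.0) of the depth-matched Vwf- cells. Without these cells 19 genes were higher (0.391%) and 22 lower (0.453%) of 4855.

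Of 36 listed genes known to be higher in aged stem cells 19 were tested, 5 were higher and none lower, with a median of 0.65, and with matched depth 13 were tested with a median of 0.57. Besides Clu and Sdpr, which the platelet list also holds, they were Mt1, a metallothionein, at 110 and 144 against 37.6 and 48.8 CPM (1.54 ± 0.28, and 0.997 with matched depth), Clca3a1, at 54.8 and 50.0 against 14.7 and 10.5 (1.99 ± 0.46, and 2.59 with matched depth), and Ramp2, a coreceptor of adrenomedullin (2.11 ± 0.59, called in 3 thinnings). Nupr1, a stress regulator (0.68 ± 0.22, adjusted p = 0.090, edgeR), and Aldh1a1, a retinal dehydrogenase (0.55 ± 0.26), missed the threshold. All mice had the same age, so the list is used for its genes and not as a measure of age.

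Markers of other cell types gave few calls. Of 10 tested endothelial genes Ramp2 was called, with a median of 0.19. Of 4 tested erythroid genes Car2, carbonic anhydrase 2, was called at 0.21 ± 0.06, and before thinning it stood at 1989 CPM in the 10 Pf4-high cells, 2096 in the other Vwf+ cells and 1727 in the Vwf- cells. None of 3 tested myeloid and 2 tested lymphoid markers was called by edgeR, with 1 myeloid marker at an unadjusted p below 0.05, and no neutrophil granule or basophil and mast cell gene could be tested. The summed level of the megakaryocyte and platelet list was 3568 and 3425 CPM in Vwf+ and 2678 and 2784 in Vwf- cells, and that of the neutrophil granule list was 6.45 and 6.25 against 942 and 6.97, where the first Vwf- value held the single granule-rich cell. Among 16 interferon genes Iigp1, an interferon-induced GTPase (-1.18 ± 0.27), and Ifitm1 (-0.28 ± 0.06) were lower, although Ifitm1 stood at 0.03 with matched depth. None of 15 glycolysis genes was called by edgeR, with 3 at an unadjusted p below 0.05, against 566 of all 5290 genes tested. Of 84 ribosomal protein genes 5 were higher and 1 lower with a median of 0.019, and of 12 mitochondrially encoded genes mt-Co1 was lower (-0.15 ± 0.04, and -0.00075 with matched depth).

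The 10 largest rises by the naming rule were those of Gkn3, Incenp, Ramp2, Ccna2, Pf4, Tk1, Clca3a1, Clu, Sh2d3c and Prc1, from 2.41 down to 1.68. Gkn3, a gastrokine family gene also transcribed in HSCs, stood at 71.0 and 81.2 CPM in Vwf+ and at 14.7 and 12.2 in Vwf- cells (2.41 ± 0.41, adjusted p = 1.6e-06, edgeR), and at 2.77 ± 0.60 with matched depth. Incenp, Ccna2, Tk1 and Prc1 are genes of the dividing cell. Ccna2 and Sh2d3c were each called in 1 of the 20 thinnings, Incenp in 4 and Clca3a1 in 5. With all UMIs Ccna2 stood at 0.96 and Sh2d3c at 0.77, the latter without a call (adjusted p = 0.226, edgeR), and Tk1 stood at 0.92 with matched depth. The 10 largest falls, from -3.63 to -1.31, were those of Tecpr1, Fam117a, Pqlc3, Gbp3, Lrrk1, Lgals1, Ppp2ca, H2-Eb1, Cd74 and Herpud1. Tecpr1 had 0 and 1 UMIs in the Vwf+ cells of the larger and the smaller library against 28 and 23 in the Vwf- cells, and it and Fam117a, Pqlc3, Ppp2ca and Herpud1 were each called in 1 of the 20 thinnings. With all UMIs Tecpr1 fell by 1.12 on the log2 scale, and Fam117a (-0.81), Ppp2ca (-0.32) and Herpud1 (-0.43) were not called. With matched depth Ppp2ca stood at -1.74 and Herpud1 at -1.31.

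Other stable calls were Apoe, the apolipoprotein, at 1213 and 1444 against 917 and 908 CPM (0.50 ± 0.08) and at 0.77 ± 0.09 with matched depth (unadjusted p = 3.0e-05), the lowest p of that fit. Pdcd4, an inhibitor of translation, rose by 1.18 ± 0.25 on the log2 scale. Rgs1, a regulator of chemokine receptor signalling, stood at 80.6 and 106 against 202 and 186 (-1.13 ± 0.23), and Myl10, a myosin light chain, at 513 and 512 against 818 and 850 (-0.69 ± 0.10). In each of these 4 genes the values of both classes did not overlap. The genes were called from the same sums, so this describes the calls and adds no support.

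Levels by the number of Vwf UMIs are a description without a test, since deeper cells hold more Vwf UMIs. Over both libraries Pf4 stood at 54.0, 80.4, 525 and 685 CPM in cells with 0, 1, 2 and 3 or more Vwf UMIs. Clu stood at 26.7, 83.3, 125 and 167 in the same cells. Cd74 stood at 517, 226, 150 and 74.1, and Procr at 158, 128, 50.0 and 18.5, where the last value is 1 UMI in 27 cells. Apoe had its highest value at 1 Vwf UMI, with 914, 1390, 1100 and 963. Clu was higher and Cd74 lower already in the cells with 1 Vwf UMI. Pf4 was far higher only from 2, where 8 of the 10 Pf4-high cells lay. Of the cells with 2 Vwf UMIs, 24 of 28 in the larger and 10 of 12 in the smaller library had no Pf4 UMI. Pf4-high cells there held 11 and 16 Pf4 UMIs in the larger and 6 and 7 in the smaller library. In the smaller library the classes of 2 and of 3 or more UMIs held 12 and 6 cells, of which the latter had no Pf4 UMI.

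**Figure D4:**
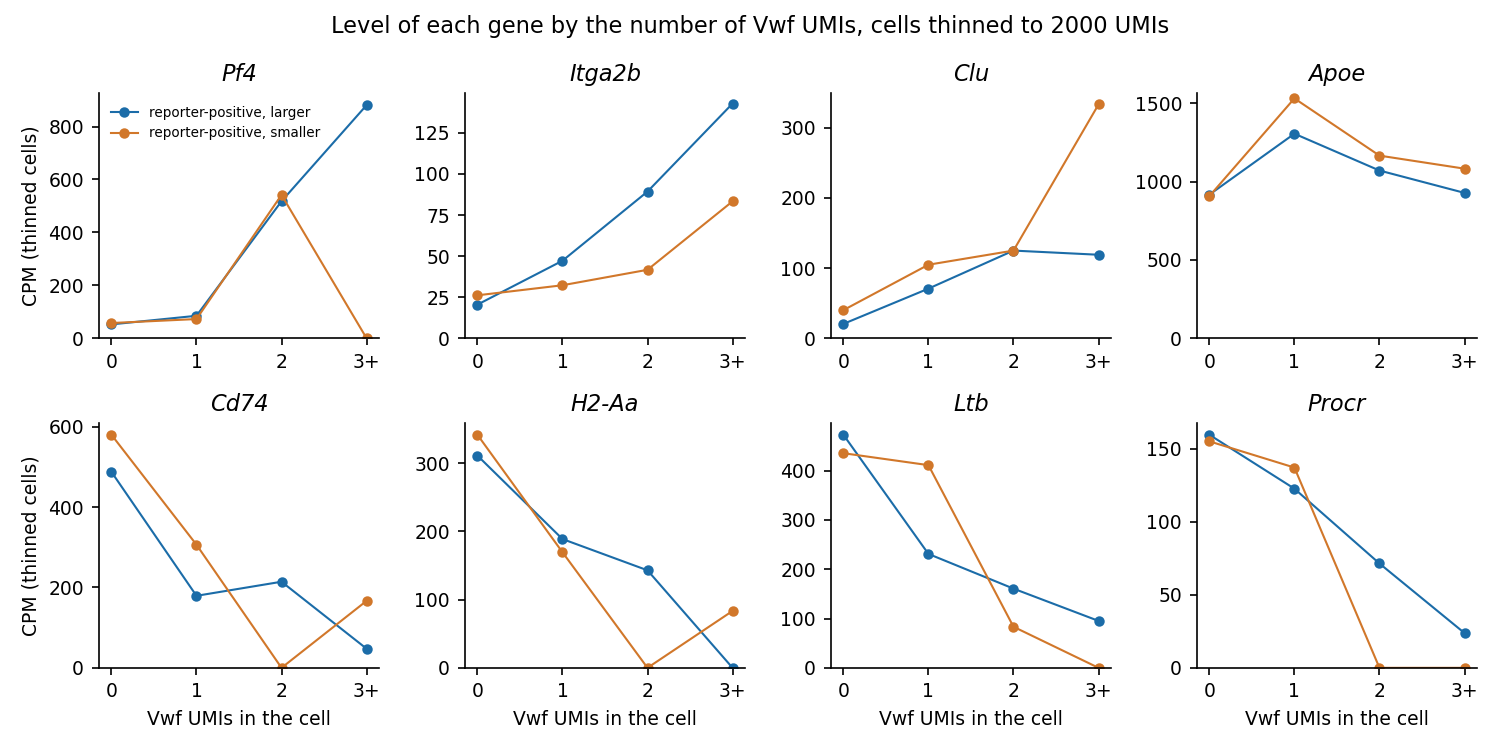
Level of 8 genes (CPM, cells thinned to 2000 UMIs) by the number of Vwf UMIs in the cell, in the larger (blue) and the smaller library (orange); points are sums over cells, without error bars. Pf4 rises at 2 Vwf UMIs in both libraries, and 8 of the 10 Pf4-high cells hold 2 or more Vwf UMIs. Cd74, H2-Aa, Ltb and Procr are lower at 1 than at 0 Vwf UMIs in each library.

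Across single thinned cells the gene most like Vwf was Apoe, by the mean over both libraries of Pearson's r of log(1 + UMIs), with r = 0.08 in the larger and 0.21 in the smaller library among 4518 genes. Clu (0.16 and 0.13) and Sdpr (0.18 and 0.11) followed closely, and the 10 most alike also included Ociad2, Emc2, 2700060E02Rik, Aldh1a1, Ift52 and P2rx1. At the other end, Arhgdib had -0.09 and -0.15, and Adh5 and Cd74 came next. These values are weak, the cells of a library share its depth and capture, and counts this sparse do not order the genes.

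**Figure D5:**
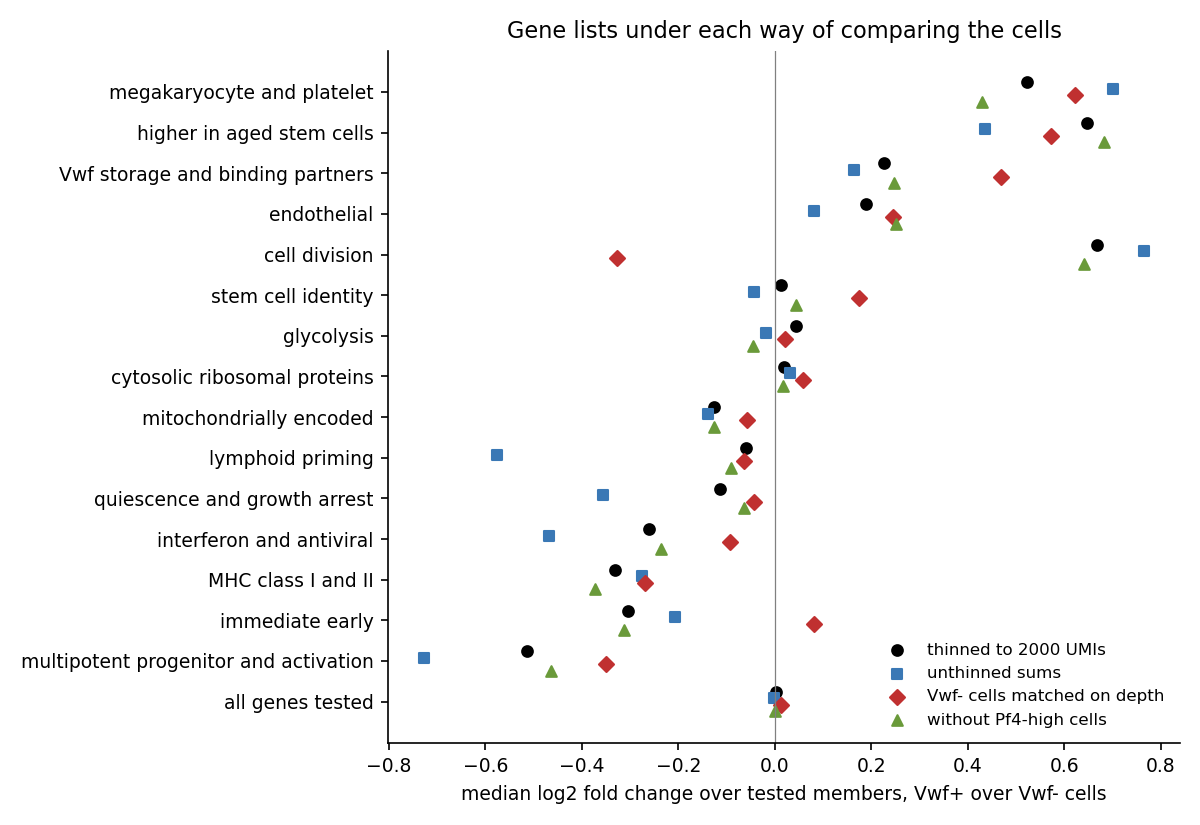
Median log2 fold change over the tested members of each gene list (horizontal) between Vwf+ and Vwf- cells, thinned (black), with all UMIs (blue), with Vwf- cells matched on depth (red) and without the 10 Pf4-high cells (green). The megakaryocyte and platelet list lies above 0 in all 4 and the MHC list below 0 in all 4, while the cell division list lies at 0.67 in the thinned cells and at -0.33 with matched depth.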

How the data were processed

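The authors sequenced the Chromium libraries in consecutive runs and processed them with Cell Ranger; the submitters' processing notes name Cell Ranger 1.3 and 2.1, Seurat 2.3.4 and mm10. The deposited values are raw UMI counts per gene and cell, not normalized, for 15287 genes. Libraries held 2166655 to 36080242 UMIs.

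From these counts, cells with less than 10% mitochondrial UMIs were thinned to 2000 UMIs (numpy 2.4.6, Python 3.11.15) and summed per library and Vwf class. Sums were tested with edgeR 4.0.16 (R 4.3.3; quasi-likelihood test with the library as block, TMM scaling, filterByExpr), which was tested on simulated data, and adjusted over all genes by the Benjamini-Hochberg method. DESeq2 1.42.0 was an alternative. The test had 1 residual degree of freedom, so the spread was borrowed across genes. The weight of this shared spread, the prior degrees of freedom, was estimated as infinite in the fit with 82 calls. No spread of a gene's own thus entered its p-values there, and errors cover little beyond counting and these libraries. The weight was 7.74 in the thinning with 1 call, 11.3 in that with 20, and infinite in those with 48 and 96. With matched depth it was 6.89. Its effect on the number of calls was not tested. Both classes come from the same libraries, so the library pairs them. Doublets were called with Scrublet (scanpy 1.11.5). Ratios within a library had 0.5 UMIs added. The members, gene lists and tests were chosen with earlier results of these data known.

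Named genes were the 10 with the largest called change each way and equal sign in both libraries, a fixed set of genes, called list members, and the 10 genes most correlated with Vwf among those found in 5% of cells; others among the stable calls were named after their values were seen. Depth matching, the 20 thinnings, and leaving out Pf4-high or mitosis gene cells were chosen after seeing the data. Some genes counted among the calls are not reported by name here. Whether libraries came from separate mice is not given in the sources used here.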

Additional observations from a re-analysis of the deposited data

How the results depend on the processing

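Against 82 called genes, the count was 1 with DESeq2, 14 with no replicate block (library left out of the fit), 25 and 124 with thinning to 1200 and 3000 UMIs, 52 with a second seed, 418 with all UMIs and 349 with all UMIs and no Pf4-high cells. It was 7 with members by a Vwf UMI left after thinning, 35 with members of at least 2 Vwf UMIs, 41 without mitosis gene cells, 35 without these and Pf4-high cells, 1 and 96 as the lowest and highest of 20 thinnings, and 0 with matched depth. Leaving out every cell with 3 UMIs of the cell division list left 10 and 6 Vwf+ cells and 0 calls among 545 genes, with 28 at an unadjusted p below 0.05 in edgeR. The share of cells with a Vwf UMI moved from 19.9% to 9.01% (larger) and from 20.6% to 11.2% (smaller library) with thinning, and to 10.4% and 12.9% without cells of the cell division list, and stayed within its interval without doublets or without the mitochondrial filter. Of 47 called genes followed over these settings, 332 of 903 values kept their sign but were no longer called, among them 46 of 47 with DESeq2, 39 with no replicate block and 29 with matched depth, and 13 changed sign. The latter were Pf4 without Pf4-high cells (-0.29) and also without mitosis gene cells (-0.33), Birc5 (-0.081), Hmgb2 (-0.19) and Tuba1b (-0.11) with members chosen after thinning, Birc5 (-0.20), Hmgb2 (-0.32), Tuba1b (-0.16), Top2a (-0.33), Mki67 (-0.23) and Ifitm1 (0.031) with matched depth, and Car2 (-0.44) and Rpl41 (-0.11) without cells of the cell division list. The cause was not tested. In each library alone all 47 kept their sign, without a test. This was largely fixed in advance, since the genes were called from these libraries. Equal sign was also a condition for naming the largest changes.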
